A study of Mus musculus with 8 samples.

Results

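This account covers 9 genes for long noncoding RNAs in the retinal pigment epithelium (RPE), the pigmented cell layer behind the photoreceptors: *Malat1*, *Neat1*, *Meg3*, *Miat*, *Snhg11*, *Gas5*, *Kcnq1ot1*, *Rmst* and *Gm42418*. They were listed by name as autosomal noncoding RNAs that are often abundant in sequencing libraries, together with *Gm42418*, a gene laid over ribosomal RNA sequence. The list was made with earlier results of these data known. Of the 9 genes, 8 were analysed among the 31053 genes in the counts, and *Gas5* was not analysed here. RNA came from RPE isolated at P29 from untreated mice of the strain C57/Bl6, with 4 libraries of the *Bbs8*+/+ and 4 of the *Bbs8*-/- genotype, the controls being littermates. The labels give a knockout and a wild type, name no Cre driver and leave the sex undetermined. BBS8, encoded by *Ttc8*, is a subunit of the BBSome, a complex that carries membrane proteins in and out of cilia. The question was how these RNAs differed in level between the genotypes.

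Long noncoding RNAs are transcribed like messenger RNAs and are not translated, and many act inside the nucleus. *Malat1* RNA gathers in nuclear speckles, where splicing factors are stored. *Neat1* RNA is the scaffold of paraspeckles, nuclear bodies that hold RNA-binding proteins. *Meg3* and *Kcnq1ot1* are imprinted, *Meg3* being expressed from the maternal and *Kcnq1ot1* from the paternal chromosome, where *Kcnq1ot1* silences neighbouring genes. *Gas5* and *Snhg11* carry snoRNAs in their introns, and *Miat* and *Rmst* are known from neurons. QuantSeq 3′ libraries start from an oligo(dT) primer, so an RNA is counted where that primer can bind, on a poly-A tail or on A-rich sequence within the RNA.

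The 3′ ends of *Malat1* and *Neat1* are shown because these RNAs differed between the genotypes and because neither mature long form ends in an added poly-A tail. Both are cut at a tRNA-like structure and keep an A-rich stretch that folds back on U-rich stretches into a triple helix. The sequences are those of the GENCODE M21 transcripts *Malat1*-201, on the minus strand at chr19:5795972-5796081 of GRCm38, and *Neat1*-201, on the minus strand at chr19:5824708-5824807. Capitals mark the 3 runs of at least 10 bases that both stretches share, which are 13, 16 and 11 bases long.
Malat1: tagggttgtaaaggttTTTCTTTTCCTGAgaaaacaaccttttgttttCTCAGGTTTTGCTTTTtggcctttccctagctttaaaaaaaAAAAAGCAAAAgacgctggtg
Neat1: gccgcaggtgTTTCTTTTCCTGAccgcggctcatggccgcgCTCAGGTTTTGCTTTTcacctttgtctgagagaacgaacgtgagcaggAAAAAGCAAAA
The last shared run, AAAAAGCAAAA, was searched on the sense strand and stood in 618 of 141767 annotated transcripts (0.436%), *Snhg11*-201 among them. It ended at the last base of *Neat1*-201 and 292 bases before the annotated end of *Malat1*-201.

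The ends of *Meg3*, *Kcnq1ot1* and *Gm42418* are shown beside them. Capitals mark the poly-A signal AATAAA, searched on the sense strand, which the last 100 bases of 28.9% of 139316 annotated transcripts hold. *Meg3*-209 ends on the plus strand at chr12:109571627-109571726, *Kcnq1ot1*-201 on the minus strand at chr7:143203458-143203557 and *Gm42418*-201 on the plus strand at chr17:39848689-39848788.
Meg3: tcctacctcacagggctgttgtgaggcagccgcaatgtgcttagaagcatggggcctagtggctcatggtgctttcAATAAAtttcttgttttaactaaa
Kcnq1ot1: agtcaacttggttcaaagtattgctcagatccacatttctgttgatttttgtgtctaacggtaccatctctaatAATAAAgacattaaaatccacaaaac
Gm42418: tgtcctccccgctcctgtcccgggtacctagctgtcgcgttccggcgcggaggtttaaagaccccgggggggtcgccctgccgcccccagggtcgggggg
The signal lay 18 bases before the end of *Meg3*-209 and 20 bases before that of *Kcnq1ot1*-201. In *Malat1*-201 it lay 16 bases before the annotated end, a stretch not shown here. The last 100 bases of *Neat1*-201 held no signal, but 6 stood within that transcript, the first at base 2870. The last 30 bases of *Gm42418*-201 held a single A, and its last 100 bases held no such signal. Within *Kcnq1ot1*-201, 23487 bases before its end, stands a run of 41 A, the longest in any of the 9 transcripts, shown in capitals with its surroundings at chr7:143226941-143227000.
Kcnq1ot1 run: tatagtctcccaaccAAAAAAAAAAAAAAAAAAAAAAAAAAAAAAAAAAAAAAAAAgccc
Runs of 8 or more A numbered 30 in *Kcnq1ot1*-201, 7 in *Meg3*-209, 3 in *Snhg11*-201 and 1 in *Malat1*-201, while *Neat1*-201 and *Gm42418*-201 had none. None of the 9 transcripts held 8 A in a row in its last 100 bases, against 3.01% of annotated transcripts. The counts do not say at which of these places a read began.

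Counts on genes ranged from 2389835 to 3093428 per library, so that 3 counts, taken as the floor, correspond to 0.970 to 1.26 CPM, the unit of counts scaled to a common library size, a limit that covers counting error only. As a check of the labels, *Ttc8* had 105 to 144 counts in *Bbs8*+/+ and 5 to 15 in *Bbs8*-/- libraries. The first *Bbs8*+/+ library stood apart from the other 3 of its genotype, with a chi-square of the counts per degree of freedom of 5.76 to 7.04 against 2.83 to 3.32 among those 3. Among the *Bbs8*-/- libraries this measure was 4.14 to 5.01. The first *Bbs8*+/+ library also had the most counts on genes, 3093428. Markers of neighbouring tissue differed between the genotypes. The summed level of 13 rod markers was 55536 to 59301 CPM in *Bbs8*+/+ and 22962 to 23636 CPM in *Bbs8*-/- libraries (12 of 13 lower), that of 12 lens markers was 2852 to 3111 and 405 to 454 CPM (12 of 12 lower), and that of 7 erythrocyte markers was 5155 to 5719 and 1985 to 2218 CPM (5 of 6 tested lower). The 10 RPE markers, 1 higher and 3 lower, summed to 38969.9 to 40015 and 47051 to 50826 CPM, a difference carried by *Ttr*, the secreted carrier of thyroxine and retinol-binding protein, since the other 9 summed to 18410.2 to 18911 and 17046 to 17604 CPM. In such bulk samples fewer cells of a type and less RNA per cell cannot be told apart. These marker sums moved with the genotype, and their part in the results below was not tested.

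The members spanned the full range of levels. Because they were listed for their level, shares and levels are given here as a description, without a test. The 8 analysed genes together took 10.5, 9.95, 9.43 and 9.11% of the counts on genes in *Bbs8*+/+ libraries 1 to 4 and 11.2, 11.8, 10.5 and 10.1% in *Bbs8*-/- libraries 1 to 4. Most of this came from *Gm42418*, with 9.05, 8.55, 8.09 and 7.59% in *Bbs8*+/+ and 9.01, 9.69, 8.54 and 7.98% in *Bbs8*-/- libraries. It had the highest level of all genes in the counts. *Malat1* took 1.38, 1.36, 1.31 and 1.49% in *Bbs8*+/+ and 2.09, 2.02, 1.87 and 2.02% in *Bbs8*-/- libraries, and was the fifth of all genes by mean level. The *Malat1* shares of the genotypes did not overlap, whereas those of *Gm42418* did. Both genes held 94.2% of the counts on all 8301 genes annotated as noncoding RNAs of a long class, 78.7% of them on *Gm42418* and 15.5% on *Malat1*.

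**Figure D1:**
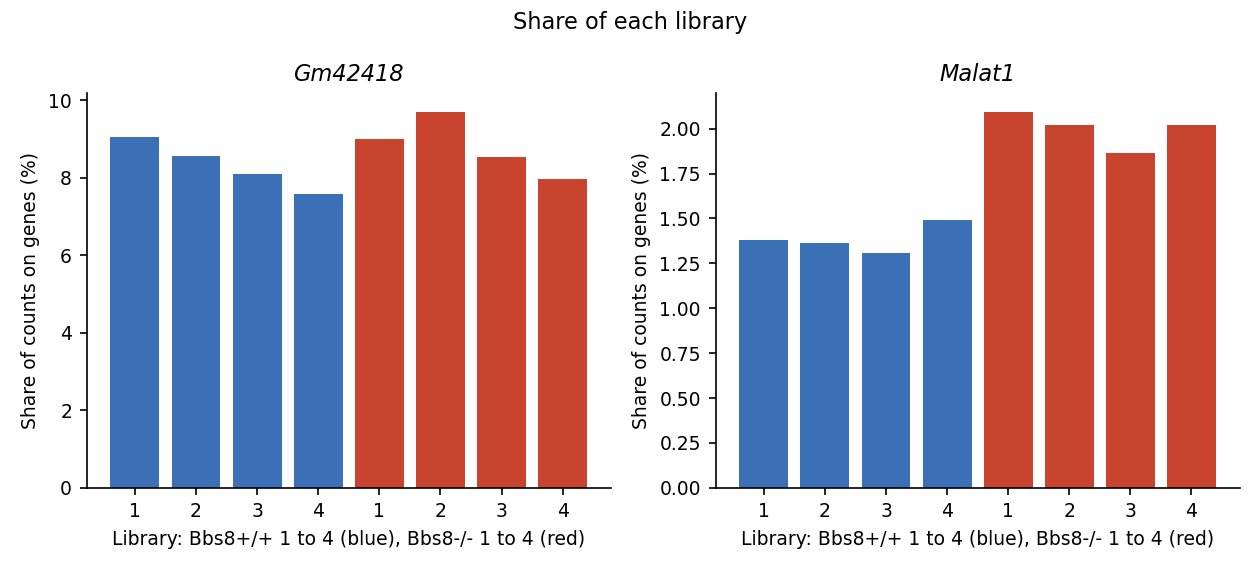
Share of the counts on all genes (y axis, percent) taken by *Gm42418* and by *Malat1* in each of the 8 libraries (x axis, blue for *Bbs8*+/+ and red for *Bbs8*-/-), 1 bar per library. *Malat1* bars lie between 1.31 and 1.49% in *Bbs8*+/+ and between 1.87 and 2.09% in *Bbs8*-/- libraries, while the *Gm42418* bars of the genotypes overlap.

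*Neat1*, *Meg3* and *Kcnq1ot1* took far smaller shares of the counts, with means in *Bbs8*+/+ and *Bbs8*-/- libraries of 0.0124 ± 0.000438% and 0.0238 ± 0.00132% for *Neat1*, 0.0110 ± 0.00276% and 0.0140 ± 0.00089% for *Meg3*, and 0.01002 ± 0.00141% and 0.0177 ± 0.00233% for *Kcnq1ot1* (SD, n = 4). Among the 2132 long noncoding RNA genes with a count, they held ranks 6, 11 and 9 by mean level. *Snhg11*, which the annotation lists as protein-coding, was far lower, with 18 to 30 counts per *Bbs8*+/+ and 31 to 63 counts per *Bbs8*-/- library. *Rmst* had 13 counts over all 8 libraries, which were 2, 4, 0 and 0 in *Bbs8*+/+ and 1, 0, 0 and 6 in *Bbs8*-/- libraries. *Miat* had 1 count in all, in the third *Bbs8*-/- library. The description as abundant therefore did not hold for *Rmst* and *Miat* in these libraries, and both missed the filter for testing, 1 CPM or more in 4 or more libraries, which 12889 genes passed.

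Per kilobase of annotated exon, the order of levels in *Bbs8*+/+ libraries was *Gm42418* with a mean of 46873 CPM per kb, *Malat1* with 2047, *Meg3* with 6.30, *Neat1* with 6.15, *Kcnq1ot1* with 1.11, *Snhg11* with 1.07, *Rmst* with 0.0730 and *Miat* with 0. In this order the ranges of *Meg3* (4.93 to 8.59) and *Neat1* (5.78 to 6.39) overlapped, as did those of *Kcnq1ot1* (0.974 to 1.35) and *Snhg11* (0.864 to 1.31). In *Bbs8*-/- libraries *Neat1*, at 10.4 to 11.8 CPM per kb, lay above *Meg3*, at 6.82 to 7.97, without overlap. Reads of this protocol come from 3′ ends, so that the division by length lowers long RNAs such as *Kcnq1ot1*, with an annotated exon of 93092 bases, more than short ones.

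Of the 6 tested members, 3 were higher in *Bbs8*-/- than in *Bbs8*+/+ libraries and none was lower, by edgeR's quasi-likelihood test at an adjusted p of 0.05. Of all 12889 tested genes 12.3% were called in either direction, 5.46% higher and 6.8% lower. Genes of high level were called more often, and 5 of the 6 members had a mean of 100 CPM or more, a level at which 13.3% of 1645 protein-coding genes were higher and 26.4% lower. Before adjustment, 4 members were higher and 0 lower at p under 0.05, and DESeq2 also called 3 higher and 0 lower. The 6 genes had a median log2 fold change of 0.58, against 0.022 over all genes tested. The genotypes did not overlap in 4 of the 6 members, against 16% of all genes tested, a share not matched for level. Because the members were chosen with earlier results of these data known, these counts and medians are a description. No test was made over the list. The 3 called members were *Malat1*, *Neat1* and *Kcnq1ot1*, which were called under every one of 14 other settings of scaling, filter, test and libraries.

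*Malat1* (ENSMUSG00000092341) is a gene of 1 exon on chromosome 19. Its level was 14424, 13924, 13359 and 15457 CPM in *Bbs8*+/+ libraries and 20519, 19732, 18030 and 19298 CPM in *Bbs8*-/- libraries. Every *Bbs8*-/- library lay above every *Bbs8*+/+ library. The fold was 1.36 (95% interval 1.28 to 1.44), a log2 fold change of 0.44 with an SE of 0.043 and an adjusted p of 3.29e-10 by edgeR. *Malat1* had the smallest rise of the 3 and, with 32680 to 55227 counts per library, the deepest count. Set against the summed counts of the 10 RPE markers within each library, its log2 difference was 0.14, with overlapping genotypes (exact permutation p = 0.0571, adjusted over 6 members 0.0857). Set against the 9 markers without *Ttr* it was 0.56, with no overlap (exact permutation p = 0.0286, adjusted 0.0429). Both of these references were chosen after the data had been seen, here and for the members below. Relative to *Bbs8*+/+, the *Bbs8*-/- sum was 1.24 times as high for the 10 markers and 0.923 times for the 9. The first reference therefore lowers every ratio and the second raises it. With 4 libraries against 4, an exact permutation p cannot go below 0.0286.

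*Neat1* (ENSMUSG00000092274) lies next to *Malat1*, at chr19:5824708-5845478 on the same strand. It was at 131, 120, 127 and 133 CPM in *Bbs8*+/+ libraries and at 236, 216, 245 and 225 CPM in *Bbs8*-/- libraries. The libraries of each genotype lay close together, and the genotypes were far apart. With a fold of 1.81 (95% interval 1.57 to 2.08), *Neat1* showed the largest fold of the 3 called members, a log2 fold change of 0.85 with an SE of 0.10 and an adjusted p of 3.51e-08 by edgeR. Against the RPE markers the log2 difference was 0.55 with *Ttr* and 0.97 without it, in both cases without overlap (exact permutation p = 0.0286 in both, adjusted 0.0857 and 0.0429).

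*Kcnq1ot1* (ENSMUSG00000101609) is annotated antisense within *Kcnq1*, at chr7:143203458-143296549 on the minus strand. Its level was 126, 102, 95.7 and 90.7 CPM in *Bbs8*+/+ and 162, 153, 171 and 201 CPM in *Bbs8*-/- libraries. The highest *Bbs8*+/+ library, the first, lay below the lowest *Bbs8*-/- library. The fold was 1.66 (95% interval 1.397 to 1.97), a log2 fold change of 0.73 with an SE of 0.12 and an adjusted p of 2.53e-05 by edgeR. The sense gene *Kcnq1*, which encodes a potassium channel, had 3 counts over all libraries. The strand setting used for counting is not given in the sources used here, and the kit keeps the strand. The log2 difference was 0.43 against the RPE markers (exact permutation p = 0.0286, adjusted 0.0857) and 0.85 against those without *Ttr* (exact permutation p = 0.0286, adjusted 0.0429).

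**Figure D2:**
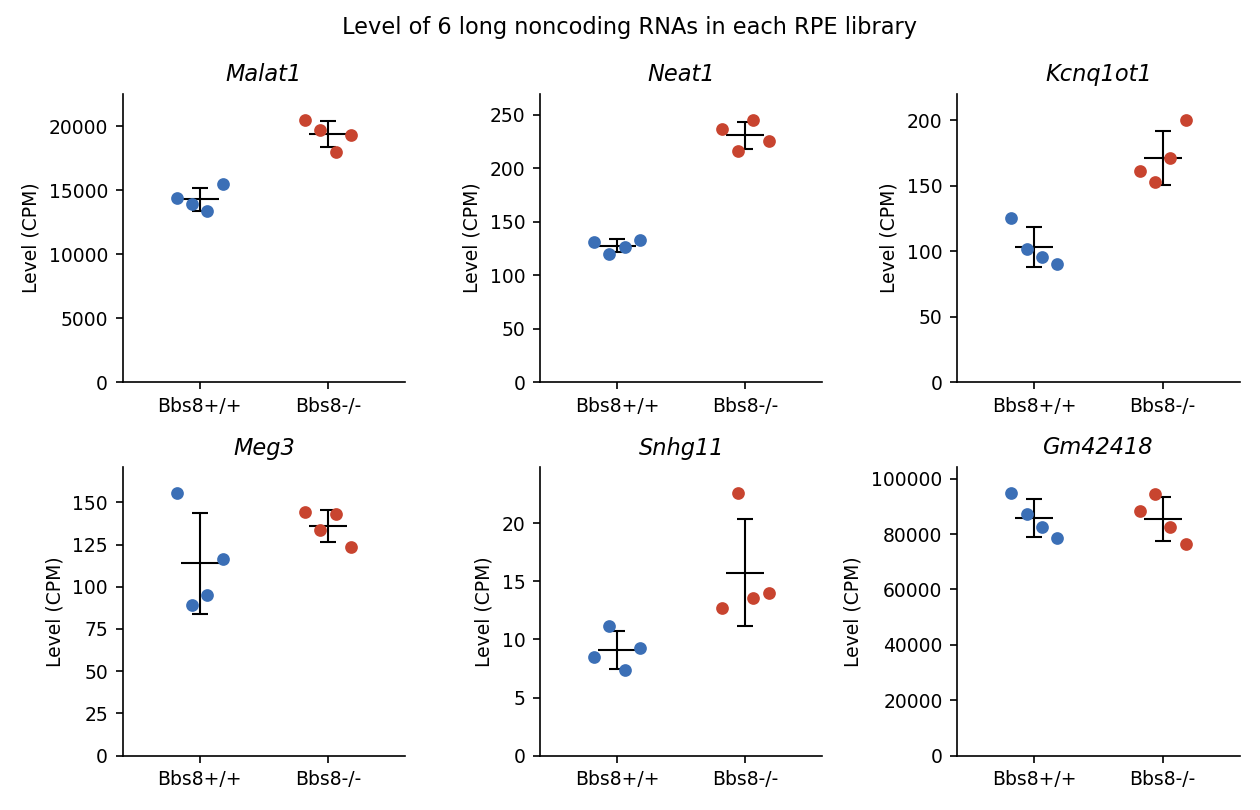
Level (y axis, CPM scaled by TMM, from 0) of the 6 tested members in each library, with 1 point per library (blue *Bbs8*+/+, red *Bbs8*-/-), the mean as a dash and the SD as a bar (n = 4). The genotypes are apart for *Malat1*, *Neat1*, *Kcnq1ot1* and *Snhg11* and overlap for *Meg3* and *Gm42418*, and 1 *Bbs8*-/- library of *Snhg11*, at 22.6 CPM, lies above the other 3.

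*Snhg11* (ENSMUSG00000044349), a snoRNA host gene at chr2:158375638-158386145 on the plus strand, was at 8.46, 11.2, 7.36 and 9.29 CPM in *Bbs8*+/+ and at 12.7, 22.6, 13.6 and 14.0 CPM in *Bbs8*-/- libraries. The genotypes did not overlap, but the gene missed the threshold, with a log2 fold change of 0.79, an SE of 0.33 and an adjusted p of 0.123 by edgeR. Its 95% interval reached from a fold of 1.09 to 2.75, so that a difference as large as that of *Neat1* and a much smaller one were both within the error at this depth. Without the second *Bbs8*-/- library the log2 fold change was 0.57. Against the RPE markers the log2 difference was 0.46 with *Ttr*, with overlap (exact permutation p = 0.0857, adjusted 0.103), and 0.88 without it, with no overlap (exact permutation p = 0.0286, adjusted 0.0429). The reference without *Ttr* was chosen after the data had been seen, and its sum was itself lower in *Bbs8*-/- libraries. The value against it is therefore not taken as a call of *Snhg11*.

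*Meg3* (ENSMUSG00000021268), at chr12:109541001-109571726 on the plus strand, was at 155, 89.1, 94.8 and 116 CPM in *Bbs8*+/+ and at 144, 134, 143 and 123 CPM in *Bbs8*-/- libraries. The first *Bbs8*+/+ library was the highest of all 8 and made the genotypes overlap, since the other 3 lay below every *Bbs8*-/- library. The log2 fold change was 0.25 with an SE of 0.14 and an adjusted p of 0.271 by edgeR. Without the first *Bbs8*+/+ library, which also stood apart over all genes, it was 0.44 with an adjusted p of 0.00947, and the call was then made. For *Malat1*, *Neat1* and *Kcnq1ot1* leaving out this library gave log2 fold changes of 0.45, 0.87 and 0.84, all called. Against the RPE markers the log2 difference of *Meg3* was -0.018 with *Ttr* (exact permutation p = 0.914, adjusted 0.914) and 0.40 without it (exact permutation p = 0.143, adjusted 0.171).

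*Gm42418* (ENSMUSG00000098178), at chr17:39846958-39848788 on the plus strand, overlaps on the opposite strand an annotated ribosomal RNA gene at chr17:39846353-39848827, and the noncoding gene *AY036118*, which had 0 counts. Reads of ribosomal RNA and of its copies cannot be told apart from its own, so that its level is uncertain. It was at 94749, 87327, 82540 and 78684 CPM in *Bbs8*+/+ and at 88356, 94534, 82541 and 76304 CPM in *Bbs8*-/- libraries. The libraries of both genotypes covered the same range. The log2 fold change was -0.0066 with an SE of 0.043 and an adjusted p of 0.959 by edgeR, with a 95% interval for the fold from 0.937 to 1.06. Scaling by library size alone turned this to 0.082 with an adjusted p of 0.214, and the difference was not called under any of those 14 settings. Against the RPE markers the log2 difference was -0.31 with *Ttr* (exact permutation p = 0.0571, adjusted 0.0857) and 0.11 without it (exact permutation p = 0.314, adjusted 0.314), with overlap in both.

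**Figure D3:**
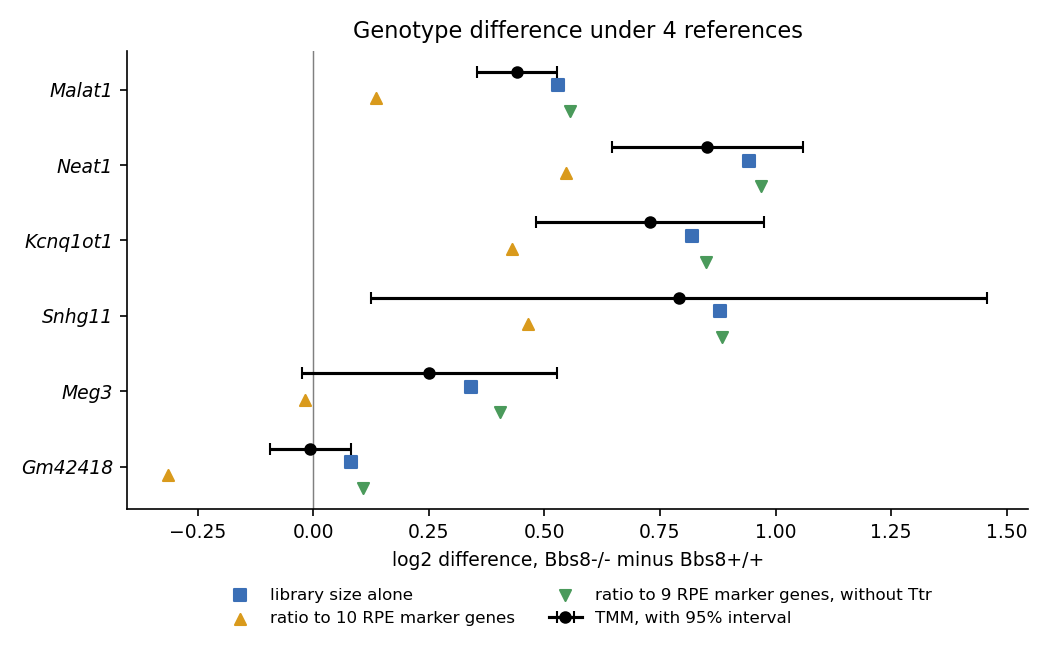
Log2 difference between the genotypes (x axis, *Bbs8*-/- minus *Bbs8*+/+) of the 6 tested members (y axis) under TMM scaling (black, with the 95% interval), library size alone (blue squares), the ratio to 10 RPE markers (yellow triangles) and the ratio to 9 of them without *Ttr* (green triangles). For *Malat1* the values run from 0.14 to 0.56 and for *Neat1* from 0.55 to 0.97, and for *Meg3* and *Gm42418* they lie on both sides of 0.

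The ratio of a member to *Malat1* within a library does not depend on scaling. The log2 ratio of *Neat1* to *Malat1* was -6.78, -6.86, -6.72 and -6.86 in *Bbs8*+/+ and -6.44, -6.51, -6.20 and -6.42 in *Bbs8*-/- libraries, a difference of 0.41 without overlap. That of *Gm42418* to *Malat1* was 2.72, 2.65, 2.63 and 2.35 in *Bbs8*+/+ and 2.11, 2.26, 2.20 and 1.98 in *Bbs8*-/- libraries, a difference of -0.45 without overlap. With log2 fold changes of -0.0066 for *Gm42418* and 0.44 for *Malat1*, it restates the *Malat1* difference with the sign turned. Both ratios gave an exact permutation p of 0.0286, the smallest that 4 libraries against 4 allow, and 0.0714 after adjustment over the 5 ratios, so that neither passed. The differences of *Snhg11* (0.33, exact permutation p = 0.229, adjusted 0.286), *Kcnq1ot1* (0.29, exact permutation p = 0.143, adjusted 0.238) and *Meg3* (-0.15, exact permutation p = 0.514, adjusted 0.514) came with overlapping genotypes. That of *Meg3* was 0.0025 without the first *Bbs8*+/+ library.

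Among the other long noncoding RNAs, fewer genes were higher than lower. Without the members, 555 genes of these annotated classes were tested, 12 of them higher and 25 of them lower, and had a median log2 fold change of 0.072. Among 12317 protein-coding genes, 689 were higher, 851 were lower and the median was 0.0195. At a mean of 50 CPM or more, 3 of 20 such noncoding genes were higher and 8 lower, against 353 and 609 of 3260 protein-coding genes (10.8% and 18.7%), a difference that was not tested. The other genes among the 12 highest of these classes went both ways. *1700020I14Rik* was at 506 ± 14.4 CPM in *Bbs8*+/+ and 287 ± 34.9 CPM in *Bbs8*-/- libraries (SD, n = 4), a log2 fold change of -0.82 with an adjusted p of 4.50e-09 by edgeR. *AI847159* (log2 fold change -0.88), *A930003A15Rik* (-0.87) and *Mir124-2hg* (-0.55), the host of a neuronal miRNA, were also lower, and *2900060B14Rik* (0.35, adjusted p 0.0691 by edgeR) and *1810058I24Rik* (0.067, adjusted p 0.775 by edgeR) were not called. *Xist*, the X-linked RNA that silences an X chromosome, was at 41.3 to 71.1 CPM in *Bbs8*+/+ and 200 to 212 CPM in *Bbs8*-/- libraries, while 4 genes of the Y chromosome (*Ddx3y*, *Eif2s3y*, *Kdm5d* and *Uty*) summed to 128 to 166 and 103 to 133 CPM. Transcripts of both sex chromosomes were thus counted in every library, in proportions that differed between the genotypes, and their part in the results was not tested. The *Xist*, Y-linked and other genes of this paragraph were chosen by level or after their values were seen.

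**Figure D4:**
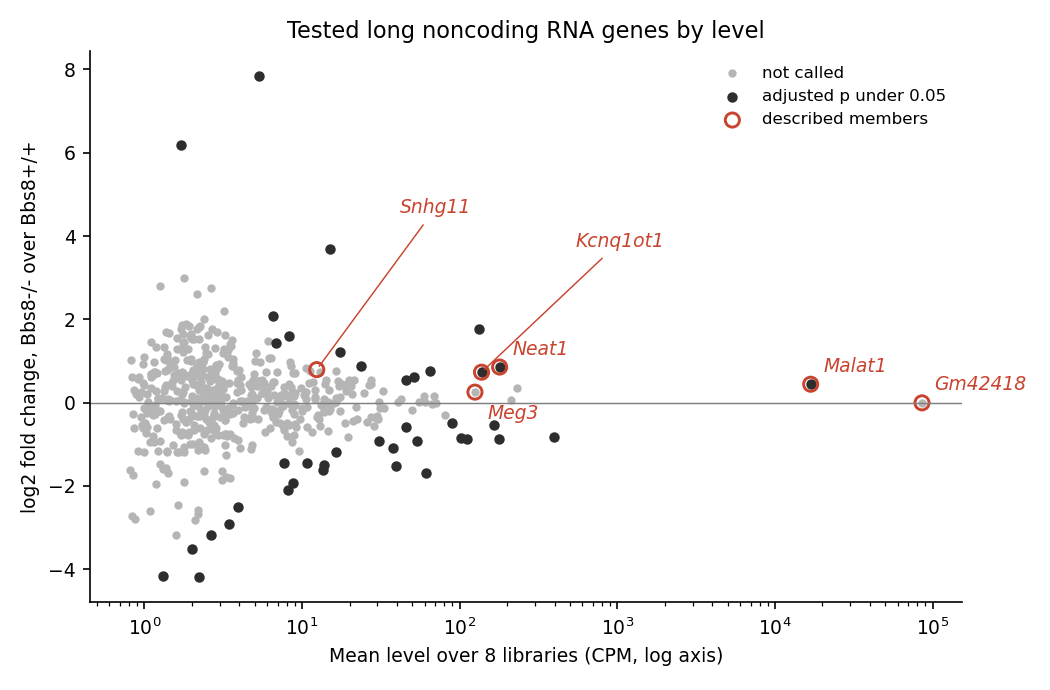
Log2 fold change (y axis, *Bbs8*-/- over *Bbs8*+/+) against the mean level over 8 libraries (x axis, CPM, log axis) of the 560 tested long noncoding RNA genes, with called genes in black, others in grey and the 6 tested members ringed in red (*Snhg11*, annotated as protein-coding, is added). *Malat1*, *Neat1* and *Kcnq1ot1* lie above 0, *Gm42418* lies at 0 at the far right, and called genes of lower level lie on both sides of 0.

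Of 32 further described autosomal long noncoding RNAs, 22 were in the counts and 11 were tested. *Otx2os1*, transcribed opposite to *Otx2*, rose from 48.5 ± 4.19 to 81.6 ± 8.16 CPM (log2 fold change 0.75, adjusted p 4.07e-04 by edgeR, n = 4), and *Vax2os*, opposite to the retinal gene *Vax2*, fell from 70.4 ± 9.41 to 37.27 ± 7.95 CPM (-0.92, adjusted p 1.85e-04 by edgeR, n = 4). The other 9 were not called, among them the imprinted *H19* (-0.040) and *Tug1* (0.53, adjusted p 0.277 by edgeR), and the median of the 11 was -0.040. Of 17 snoRNA host genes only 6 were in the counts, and all 6 were tested. Of these, *Epb41l4aos* was lower (-0.91, adjusted p 0.00272 by edgeR) and none was higher, with 0 higher at an unadjusted p under 0.05 and 0 by DESeq2. Their median was 0.12. Neither of the 2 tested genes related to ribosomal RNA sequence, *Gm26917* (0.54, adjusted p 0.255 by edgeR) and *Lars2* (0.22, adjusted p 0.808 by edgeR), was called by edgeR or by DESeq2, or had an unadjusted p under 0.05.

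Genes for protein partners of *Neat1* and *Malat1* are to be read beside the 12.3% of all tested genes that were called. Of 20 paraspeckle protein genes, 1 was lower and 0 were higher by edgeR (1 higher at an unadjusted p under 0.05 and 1 by DESeq2), and the median log2 fold change was 0.018. The gene that fell was *Smarca4*, an ATPase of the SWI/SNF chromatin remodelling complex (-0.33, adjusted p 0.0120 by edgeR). *Sfpq*, which binds *Neat1* and is needed for paraspeckles, was at 248 ± 12.3 CPM in *Bbs8*+/+ and 293 ± 9.34 CPM in *Bbs8*-/- libraries (0.24, adjusted p 0.0736 by edgeR, n = 4), and *Nono* was at -0.16 (adjusted p 0.688 by edgeR). Under library size alone 1 paraspeckle gene was called higher and 0 lower. Of 17 nuclear speckle protein genes, the splicing factor gene *Srsf2* rose (0.53, adjusted p 0.0143 by edgeR), while *Acin1* (-0.42, adjusted p 0.00122 by edgeR), *Srrm1* (-0.31, adjusted p 0.00450 by edgeR) and *Son* (-0.22, adjusted p 0.0455 by edgeR), which encode scaffold and splicing proteins of the speckle, fell, and the median was -0.003. The *Srsf2* call was lost without *Bbs8*+/+ library 2 or 4 or *Bbs8*-/- library 1.

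In the imprinted domain around *Kcnq1ot1*, 9 of 16 genes were tested. *Cd81*, a tetraspanin of the cell membrane, rose from 286 ± 6.90 to 411 ± 7.58 CPM (log2 fold change 0.52, adjusted p 1.02e-05 by edgeR, n = 4), and the other 8 were not called. *Cdkn1c*, a cell cycle inhibitor that *Kcnq1ot1* silences on the paternal chromosome and the nearest coding gene upstream of it, was at 80.1 ± 8.12 CPM in *Bbs8*+/+ and 84.4 ± 5.35 CPM in *Bbs8*-/- libraries (0.077, adjusted p 0.805 by edgeR, n = 4). None was lower by edgeR or DESeq2, with 1 at an unadjusted p under 0.05. With 1 library left out in turn, 1 to 2 genes of the domain were higher and 0 to 1 lower. The median of the 9 was 0.21. In the domain around *Meg3*, 5 of 6 genes were in the counts and 2 were tested. These were *Mirg* (-2.59, adjusted p 0.0877 by edgeR) and *Dlk1* (-0.55, adjusted p 0.764 by edgeR), both under 5 CPM. Neither was called by edgeR or DESeq2, and before adjustment 1 was lower and 0 higher at p under 0.05. *Rtl1*, the neighbour of *Meg3* on the other side, had 0 counts.

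The coding genes beside the members are to be read against the same 12.3%. *Frmd8*, 4224 bases from *Neat1*, was at 8.42 ± 5.02 and 7.61 ± 3.13 CPM (log2 fold change -0.15, adjusted p 0.897 by edgeR, n = 4). The neighbours of *Snhg11* were *Lbp* (0.12) and *Ralgapb* (-0.39), those of *Rmst* were *Tmpo* (-0.36) and *Nedd1* (-0.60), and none of these 4 was called. Of the neighbours named here, *Cryba4*, a lens crystallin gene 17098 bases from the nearly silent *Miat*, was the only one called, with 84.2 ± 15.6 CPM in *Bbs8*+/+ and 15.9 ± 3.83 CPM in *Bbs8*-/- libraries (-2.39, adjusted p 5.58e-12 by edgeR, n = 4). *Trpm5* beside *Kcnq1ot1* had 2 counts, and *Esp15* and *Esp38* beside *Gm42418* had 1 and 0, as did the gene *Gm26897* beside *Miat* with 0.

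Genes whose profiles over the 8 libraries were most like those of the called members were sought among 8428 tested genes whose mean level was 10 CPM or more, by the root mean square difference of log2(CPM + 1) values centred on each gene's mean. For *Malat1* these were *Dhrs1*, a short-chain dehydrogenase (difference 0.0474), and *Dbi*, which binds acyl-CoA (0.0538), with log2 fold changes of 0.37 and 0.48. For *Neat1* they were *Lman1*, a cargo receptor of the secretory pathway (0.0834), and *Col8a1*, a collagen of the basement membrane (0.0938), with log2 fold changes of 0.89 and 0.91. For *Kcnq1ot1* they were *St6galnac2*, a sialyltransferase (0.104), and *Slc1a1*, a glutamate transporter (0.114), with log2 fold changes of 0.80 and 0.68. All 6 were coding genes and were called higher, which the way of choosing them favours.

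Shares of 6 read classes were compared between the genotypes. None passed after adjustment, and only the first one given here had no overlap. Reads that htseq-count assigned to no counted feature made up 17.02 to 18.4% of the reads in *Bbs8*+/+ and 19.8 to 20.6% in *Bbs8*-/- libraries, without overlap (exact permutation p = 0.0286, adjusted over 6 classes 0.171). Where in the genome these reads lay was not examined. Reads that mapped to several places made up 33.6 to 34.5% and 32.8 to 34.1%, with overlap. Of the counts on genes, mitochondrial protein genes took 6.66 to 7.59% and 6.28 to 6.75% (exact permutation p = 0.0857, adjusted 0.171). By edgeR, 4 of 11 tested mitochondrial genes were lower, led by *mt-Nd2* (log2 fold change -0.52), and 0 were higher (1 at an unadjusted p under 0.05), but under library size alone and by DESeq2 1 was lower and 1 higher, and with 1 library left out 1 to 4 were lower. Long noncoding RNA genes took 9.71 to 11.05% and 10.7 to 12.3% (exact permutation p = 0.0571, adjusted 0.171), and without the members 0.581 to 0.598% and 0.584 to 0.602% (exact permutation p = 0.543, adjusted 0.543). The part of these measures in the rise of *Malat1*, *Neat1* and *Kcnq1ot1* was not tested.

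Among markers of other cell types, 5 of 9 cone genes (188 to 244 and 471 to 529 CPM in sum), 4 of 7 Müller glia genes (1152 to 1350 and 1781 to 1924 CPM), 4 of 6 tested ocular surface genes (44.6 to 64.0 and 121 to 152 CPM) and 2 of 12 tested amacrine and ganglion cell genes (603 to 632 and 593 to 685 CPM) were higher in *Bbs8*-/- libraries and none of them was lower by edgeR or DESeq2, with 1 amacrine or ganglion cell gene lower at an unadjusted p under 0.05. With 1 library left out in turn these counts ran from 3 to 5, 2 to 5, 1 to 4 and 0 to 2. Bipolar cell markers summed to 286 to 318 and 214 to 289 CPM (1 of 10 tested lower), and fibroblast markers to 1032 to 1390 and 970 to 1157 CPM (2 of 6 lower, and 0 to 3 with 1 library left out). Those of melanocytes (134 to 184 and 174 to 190 CPM, 4 tested), endothelium (25.3 to 34.7 and 28.7 to 36.7 CPM, 6 tested) and macrophages and microglia (339 to 442 and 309 to 352 CPM, 9 tested) had no called gene by edgeR or DESeq2, with 1 melanocyte gene higher and 1 macrophage gene lower at an unadjusted p under 0.05. The levels of *Malat1*, *Neat1* and *Kcnq1ot1* in each of these cell types were not measured.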

How the data were processed

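RNA of RPE isolated from mice at P29 was sequenced in QuantSeq 3′ FWD libraries, 4 of *Bbs8*+/+ and 4 of *Bbs8*-/- genotype. The paper counts each animal as a biological replicate. Every library held transcripts of both sex chromosomes, so the number of mice behind each library is uncertain. The authors trimmed adapters and poly-A tails, aligned the reads with STAR to mm10, assigned unique alignments to genes with htseq-count, and deposited the raw counts of each library without normalization or filter. Groups came from the labels, and 0 pairs of libraries had identical values. Symbols, positions and transcript sequences came from GENCODE M21 (GRCm38).

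The genotypes were compared in edgeR 4.0.16 under R 4.3.3 (TMM, genotype as the only term, quasi-likelihood F test, two-sided, Benjamini-Hochberg over the 12889 genes that reached 1 CPM in 4 or more libraries, threshold 0.05). CPM are scaled by TMM factors of 0.955 to 1.05, and shares are of the counts on genes. Rows of htseq-count that name no gene, 51.0 to 54.2% of the reads in a file, stayed out of the fit. Ratios and shares of read classes were compared with two-sided exact permutation tests. Library totals of 2389835 to 3093428 counts set the precision. The fit was checked on simulated counts.

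The members and all gene lists were chosen with earlier results of these data known. Named genes were *Ttc8*, the members, the 2 genes most like each called member, the nearest coding gene on each side, and of each list at most the 2 largest rises and falls among called genes averaging 10 CPM or more. Other genes of the lists, among them *Son* and those not called, were named after their values were seen. A result that this rule covers is not reported here. Alternatives were DESeq2 1.42.0, other scalings and filters, replicate numbers as a block and each library left out, and 3 references were added after the data were seen. Labels say biological replicate. Same-numbered libraries of the 2 genotypes correlated at -0.032 to 0.0067 in their deviations.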

Additional observations from a re-analysis of the deposited data

Results flagged for a closer look

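The second *Bbs8*-/- library had 22.6 CPM of *Snhg11*, far from the other 3 of its genotype, which lay between 12.7 and 14.0 CPM. Its gap to the nearest was 0.873 of the range, above Dixon's 95% limit for 4 values. Such a limit is passed by chance in about 5% of groups, and 24 groups were looked at. The value rests on 63 counts, against 31 to 40 counts in the other 3.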

How the results depend on the processing

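Over the 14 settings the log2 fold change ran from 0.40 to 0.53 for *Malat1*, from 0.82 to 0.94 for *Neat1* and from 0.65 to 0.84 for *Kcnq1ot1*, with adjusted p-values of at most 8.20e-08, 1.57e-06 and 8.09e-04, so that these 3 were called in each. Ratios to RPE markers are not among these settings. Against the 10 markers with *Ttr*, *Malat1* was at 0.14 with overlap, and *Neat1* (0.55) and *Kcnq1ot1* (0.43) had none. All 3 had an adjusted exact permutation p of 0.0857. *Snhg11* ran from 0.57 to 0.91 (adjusted p 0.0752 to 0.375) and was called in none of them. *Meg3* ran from 0.15 to 0.44 and was called only without the first *Bbs8*+/+ library. *Gm42418*, never called, changed sign under library size alone (0.082), with a filter of 10 CPM in 4 libraries (0.017) and against the RPE markers without *Ttr* (0.11, against -0.31 with *Ttr*), and ran from -0.056 to 0.045 with 1 library left out. Against the RPE markers *Meg3* was at -0.018. Library size alone moved the median of all genes by 0.089. Leaving out 1 library gave log2 ratios of *Meg3* to *Malat1* from -0.25 to 0.0025, where 3 libraries against 4 allow no p under 0.0571. With that filter, 16 long noncoding RNA genes were lower, fewer genes being tested. Library size alone gave 1005 genes higher and 657 lower of all tested.

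The replicate numbers did not pair the libraries, as no same-numbered pair correlated above 0.1. With the replicate block 650 genes were higher and 827 lower, 3 members stayed higher, and the log2 fold changes of *Malat1*, *Neat1* and *Kcnq1ot1* were 0.44, 0.85 and 0.73. The sign-flip test of 4 paired ratio differences cannot go below 0.125. Depth limits *Snhg11*, *Rmst* and *Miat*, with 266, 13 and 1 counts in all.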
